A study of Drosophila melanogaster with 3 samples.

Results

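The region of elB and noc holds a pair of related zinc finger genes on chromosome arm 2L of Drosophila melanogaster. It was examined for sites of Ultrabithorax (Ubx), a Hox transcription factor, in the fly cell line S2-DRSC, which is of late embryonic origin. Its members were the HA-Ubx peaks of 2L with a midpoint from 14380000 to 14580000 in the dm3 build, a stretch of 200 kb that takes in the flank towards Adh. There were 12 such peaks, of 1789 on 2L and 10337 in the whole list. The region was selected on the scores and positions of its HA-Ubx peaks, which were already known, so its positions and scores are given as a description and none of them was tested.

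The cells carried a stably transfected Ubx with an HA epitope tag and had received copper sulphate at 10 micromolar for the 24 h that preceded chromatin preparation. The study has 2 replicates of chromatin immunoprecipitation with an antibody against HA, followed by sequencing (ChIP-seq), and 1 input sample from the same tagged cells. Cells without the tagged protein were not analysed here. The labels name no promoter for the transgene and do not say whether the line is a single clone or whether the replicates came from separate cultures. Both replicates share 1 peak list, so no value below has a replicate error. The depth behind each peak is unknown. Each peak has a score deposited by the authors, and which quantity of the peak caller it is remains unstated in the sources used here. The scores are used to rank peaks within this list. Differences, sums and Pearson's r of scores are also given, in the authors' units, and what such units mean is unknown. No ratio of scores was formed.

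Elbow, the product of elB, and No ocelli, the product of noc, are closely related zinc finger proteins that act together with the co-repressor Groucho. In the fly they help to set appendage identity in the wing and leg primordia and take part in eye and head development. Both act in the embryonic tracheal system, where elB bears on the migration of particular branches. Mutations in noc affect the ocelli, the simple eyes on top of the head, which gave the gene its name. Ubx sets segment identity along the trunk and is best known for turning the dorsal appendage of the third thoracic segment into a haltere instead of a wing.

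In the Release 6 gene table, used here for names and order alone, elB is followed along 2L by noc with 8 listed genes in between. Of these, 3 code for proteins and 5 are long non-coding RNAs. The protein-coding ones are Pburs, which encodes a subunit of the hormone bursicon, Cpr35B, which encodes a cuticle protein, and CG15283. Between noc and Adh, the gene of alcohol dehydrogenase, 23 genes are listed, of which 6 code for proteins, 8 are long non-coding RNAs and 9 are tRNAs. The protein-coding ones include osp and Adhr, the latter a relative of Adh. Gene positions in dm3 were not used here. No peak below is therefore placed in or beside a particular gene, and no exon, intron or promoter is assigned. No sequence of the peaks is shown, since the dm3 genome sequence was not used here either.

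The 12 peaks were split at the longest gap between them, 79.2 kb without a peak, into a lower and an upper run. The runs are thus a description of these peaks, and differences between them were not tested. The lower run held 7 peaks within 25.8 kb, with scores from 17.9 to 50.3. The upper run held 5 peaks within 45.5 kb, with scores from 17.1 to 174. The empty stretch ran from 14410743 to 14489914, and 52 of the 1788 gaps between adjacent peaks on 2L were longer. The region also held the strongest peak of the arm. On the low side the nearest peak beyond the bounds was 22.5 kb from the first member, and on the high side it was 45.1 kb from the last.

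**Figure D1:**
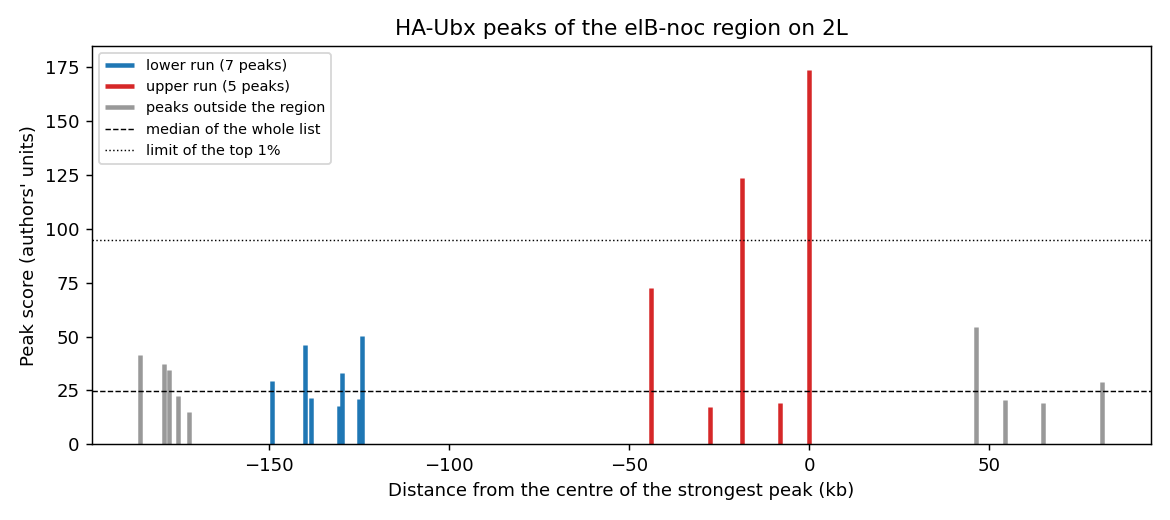
Score of each HA-Ubx peak (vertical axis, authors' units) against the distance of its midpoint from the centre of the strongest peak (horizontal axis, kb, rising along 2L). Line thickness is fixed and does not show peak width. The lower run (blue) stays at or below 50.3, the upper run (red) alternates between high and low scores up to 174, and 79.2 kb without a peak lie between them.

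The upper run was led by the peak at 14533807 to 14535443, 1637 bp wide, with a score of 174. This was the highest score of the whole list, held also by 1 peak of 3R at 26667343 to 26669003. Shared scores were common, since 4250 of the 10337 peaks, with 6 members among them, had the same score as another peak. The second peak of the run by score lay at 14515094 to 14516671, was 1578 bp wide and scored 124, which ranked 8 in the list and 2 on 2L. The third, at 14489915 to 14491231, was 1317 bp wide and scored 72.5, with rank 439 in the list and 89 on the arm. These 3 were the strongest members, and each was wider than any other member.

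Between these strong peaks lay weak ones. The peak at 14506636 to 14507556 scored 17.1, the lowest score of any member, with rank 7516 in the list. The peak at 14526041 to 14526771 scored 19.2, with rank 6819. Along the upper run the scores thus read 72.5, 17.1, 124, 19.2 and 174, with strong and weak peaks in turn. Adjacent midpoints were 16.5, 8.79, 10.5 and 8.22 kb apart. None of the 5 peaks had another midpoint within 5000 bp.

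The lower run began with a single peak at 14384986 to 14385856, 871 bp wide, with a score of 29.4 and rank 4058. The other 6 peaks of this run stood in 3 close pairs, whose midpoints were between 830.5 and 1847.5 bp apart. In the first pair the peak at 14394144 to 14394790 scored 45.9 and its neighbour at 14395810 to 14396819 scored 21.4. In the second pair the peak at 14403553 to 14404469 scored 17.9, and 50 bp beyond it the peak at 14404520 to 14405210 scored 33.03. In the third pair the peak at 14409354 to 14409971 scored 20.8, and 272 bp beyond it the peak at 14410244 to 14410742 scored 50.3, the highest score of the run, with rank 1458. Each pair thus joined a stronger and a weaker peak, which differed by 24.5, 15.1 and 29.5 score units.

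In each of the 3 pairs the stronger peak was the narrower. The stronger peaks measured 647, 691 and 499 bp and the weaker ones 1010, 917 and 618 bp. On 2L as a whole, 492 adjacent pairs had midpoints within 2000 bp. The narrower peak had the higher score in 41.7% of them, and the scores differed by a median of 13.7 units, with an interquartile range of 5.84 to 27.7. All 3 differences in the lower run were above this median, and 1 was above the interquartile range. With 3 pairs, chosen as a part of the region after its values were seen, nothing is read from these counts.

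Close spacing was thus found in the lower run and not in the upper. In all, 6 of the 12 members had another midpoint within 5000 bp, and all 6 were in the lower run. On 2L 74.6% of peaks had such a neighbour. Adjacent members were parted by a median of 7.04 kb, edge to edge, against 3.86 kb on the arm. Gaps under 1000 bp made up 2 of the 11 gaps in the region and 26.5% of those on 2L. The 6 members without a close neighbour had a median score of 50.95, and the 6 with one had a median of 27.2. On 2L the corresponding medians were 27.05 for 454 peaks and 25.1 for 1335 peaks. The members without a close neighbour were the whole upper run and the first peak of the lower, with scores from 17.1 to 174. The region was selected on scores and positions, so nothing is read from the difference between its 2 medians.

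The first member lay 5.42 kb inside the lower bound, and the last lay 45.4 kb inside the upper bound. Just beyond the upper bound, by 0.991 kb, was a peak at 14580523 to 14581458 with a score of 54.6 and a rank of 1162. That score exceeds every score of the lower run. On the low side the first peak outside lay 17.8 kb beyond the bound, at 14361996 to 14362503, with a score of 15.1.

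Set against the whole list, the members' scores were spread widely. Of the 12, 7 scored above the list's median of 24.9, as did 51.7% of the peaks on 2L. Members were taken by position, but the region was selected on its scores, so nothing is read from these shares. In the top 10% of the list, which began at a score of 56.8, there were 3 members, all in the upper run, and by definition the list as a whole has 10% there and 2L had 10.8%. In the top 1%, which began at 94.7, there were 2 members, against 1.06% of the peaks on 2L. The members had a median score of 31.2 and quartiles of 20.4 and 55.9, and 2L had a median of 25.5 and quartiles of 17.1 and 39.1. Without the 2 strongest peaks, the median of the other 10 was 25.4.

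Equal windows of 200 kb, laid end to end outwards from the region, gave 113 others on 2L. The other windows held a median of 14 peaks (quartiles 8 and 22, highest count 38), and 67 of them held at least 12. The density was 60.0 peaks per Mb in the region and 77.8 per Mb over the span of 2L. Peaks covered 11.4 kb of the region, or 5.72% of its length, and 6.04% of the span of 2L. In 52 of the other windows they covered at least as much.

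The strongest peak of the region scored higher than that of any other window of 2L. The region was selected on its scores, so nothing is read from its place among the windows by score. Among the 112 other windows with a peak, the highest score within a window had a median of 68.9 and ran from 21.2 to 119. The maximum of the region was 55.2 units above the highest of these, which belonged to a window with 13 peaks. None of the 113 held more than 1 peak of the top 1%, and 96 held none. At wider limits the region was not alone on 2L. At least 2 peaks of the top 2%, which began at 84.3, were held by 8 of the other windows. At least 3 peaks of the top 10% were held by 33, and 37 had at least as high a summed score. The 4 other windows with 12 peaks had maxima from 55.5 to 115 and median scores from 19.4 to 29.3. The median score of the region was reached or passed in 22 of 112 windows. Windows laid in the same way on 2R, 3L and 3R brought the number of others to 476. Of these, 1 had an equal maximum, and 10 held at least 2 peaks of the top 1%, with 6 on 3R, 3 on 3L and 1 on 2R.

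**Figure D2:**
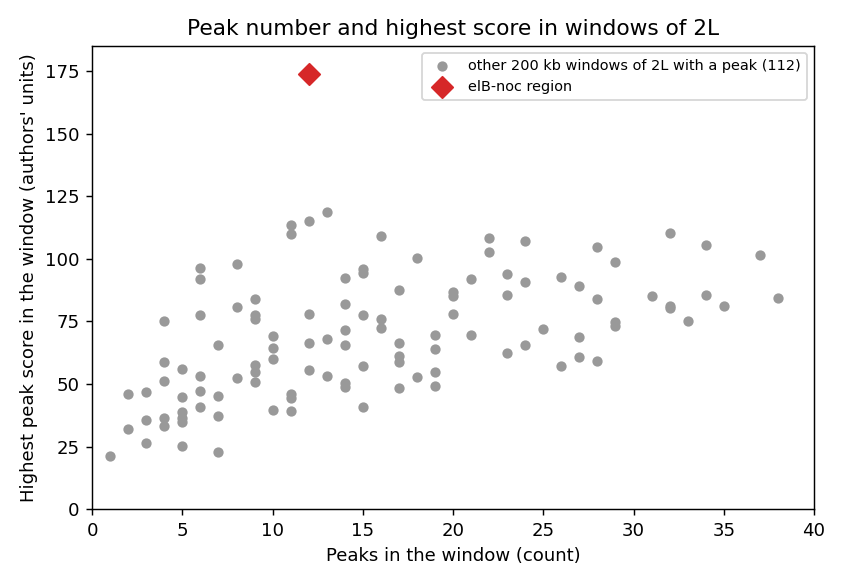
Highest peak score (vertical axis, authors' units) against the number of peaks (horizontal axis) in windows of 200 kb on 2L. The elB-noc region (red diamond) has 12 peaks and a highest score of 174, while the 112 other windows with a peak (grey points) have maxima from 21.2 to 119.

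The 2 strongest members lay 18.7 kb apart by their midpoints, with 1 weak peak between them. Among the 10 highest-scoring peaks of the list, this was the 1 pair of neighbours within 20 kb. Among the 103 peaks of the top 1% there were 8 such pairs. In the other 7, found on 3L and 3R, the weaker partner scored between 94.8 and 115, against 124 here. Their midpoints were 0.768 to 11.3 kb apart, so the pair of the elB-noc region was also the most widely spaced of the 8. The limit of 20 kb lies just above the 18.7 kb of this pair, and the pairs were added after the peaks had been seen. Nothing is therefore read from the place of this pair among the others. Neither strong member had a midpoint within 5000 bp, a state shared by 26 of the 103 peaks (25.2%) by 7 of the 19 that lie on 2L and by 25.4% of all peaks on 2L.

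In the upper run the 3 strong peaks measured 1317 to 1637 bp and the 2 weak ones 731 and 921 bp. Of these 2 the wider peak had the lower score, 17.1 against 19.2. In the lower run the widest peak, of 1010 bp, scored 21.4 and the narrowest, of 499 bp, scored 50.3. The runs were drawn after the peaks had been seen, so no contrast in width and score is read between them. Over 1000 bp wide were 4 members, against 20.9% of the peaks on 2L. Across the 12 members, which share 1 list and in part lie side by side, Spearman's rho between width and score was 0.31 and Pearson's r was 0.81. Across the 1789 peaks of 2L, rho was 0.22 and r was 0.15. The region was selected on the scores of its peaks, and the members are not replicates, so nothing is read from the difference in r. The 2 strongest members were also the 2 widest, with ranks of 738 and 823 by width in the whole list.

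**Figure D3:**
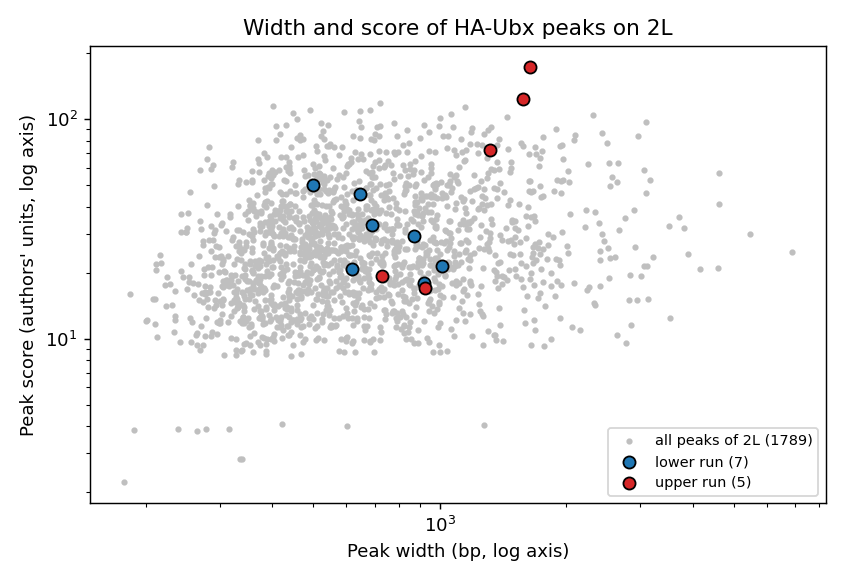
Score (vertical log axis, authors' units) against width (horizontal log axis, bp) for the 1789 HA-Ubx peaks of 2L (grey) and the 12 members (blue for the lower run, red for the upper run). The 3 strong peaks of the upper run lie at 1317 to 1637 bp with scores of 72.5 to 174, and the 2 strongest stand above all grey points.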

How the data were processed

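HA-Ubx ChIP-seq of S2-DRSC cells gave 1 list of peaks for both replicates. The submitters' processing notes name BWA 0.7.12, MACS2 and dm3. Those notes, as held here, state neither thresholds nor how the input was used or the replicates joined. The score of each peak is the value deposited by the authors, of unstated quantity. Of 10337 scores, 328 had more than 5 decimals, and none of these was a member's. Sequence names ending in Het, and U and Uextra, do not occur in the Release 6 table, so the list was kept as dm3 and no coordinate was converted.

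Coordinates are 1-based. Membership was by midpoint, ranks are by falling score with ties at the best rank, and gaps run between edges. Windows were kept where they lay wholly between the outermost peaks of an arm. Python 3.11.15, numpy 2.4.6, pandas 2.3.3, scipy 1.17.1 and matplotlib 3.10.9 were used, and the counting was tested on simulated data. All 12 members are named, although the rule set for naming peaks required fewer. The members, limits and lists were chosen with earlier results of these data known. The runs, close pairs, strong pairs and width classes were added after the peaks had been seen. No test was made. Promoter motifs and protein sequences had been planned for elB and noc and were not used here.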

Additional observations from a re-analysis of the deposited data

How the results depend on the processing

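The number of members fell from 12 to 7 in the 50% of the list with the highest score, by construction, and rose to 19 when both bounds were moved outwards by 25 kb, which lengthens the region to 250 kb. Joining neighbours with edges under 1000 bp apart left 10. The covered length was 11.4 kb and fell to 7.24 kb in the upper 50%, since fewer peaks were left. The share of other windows of 2L with at least as many peaks was 59.3% and stayed between 50% and 67.4% in the 6 alternatives run. The 67.4% is over windows of 2L, 2R, 3L and 3R, and on 2L alone the highest share was 59.7%. The share of windows with at least as high a median score was 19.6%, and fell to 11.01% in the upper 50% and to 9.82% after joining. It lay between 17.97% and 20.2% in the other 4, where the 17.97% is again over windows of 2L, 2R, 3L and 3R. The 3 members in the top 10% of scores remained 3 in number under each of the 4 alternatives. In the upper 50% and in the joined list the top 10% was taken anew from that list, so the score limit was not held fixed. The median score ran from 29.4 to 50.3 and the median gap from 7.04 to 13.4 kb. Their limits were 19.2 to 72.5 and 0.272 to 15.4 kb, taken from the spread of the members' own scores and gaps. Members are not replicates and these limits are wide, so little is read from values that stayed inside them. For counts and covered length the limit was a factor of 1.5, and for shares of windows a 95% interval. Of the 32 recalculations, 27 stayed within the limits set for them and 5 moved past them. The 27 include membership by any overlap, which gave the reported value for every result, so the tally is no measure of stability. No replicate could be left out, since the list is common to both. No paired analysis was possible because the peaks carry no replicate number. The depth of the libraries is unknown.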
